A study of Mus musculus with 6 samples.

Results

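The 10 Wnt ligand genes Wnt1, Wnt2, Wnt2b, Wnt4, Wnt5a, Wnt5b, Wnt7b, Wnt9a, Wnt11 and Wnt16 were followed in cultured primary mesangial cells of the mouse, which hold together and contract the capillary tuft of the glomerulus. They were taken by gene symbol from an RNA-Seq table of 19730 rows, in which each of the 10 symbols had 1 row, and 6 further rows carried a Wnt symbol. The question was how TGF-β1 (transforming growth factor beta 1, a cytokine that promotes matrix build-up and scarring) changes the ligands these cells make. There were 3 Control libraries and 3 libraries of cells given TGF-β1 at 10 ng/ml for 72 h. All cultures were kept in high glucose (25.5 mM) with 20% serum and were used at passages 3 to 6. The labels do not say whether the 3 libraries of a group came from separate animals or cultures, so p-values measure only the spread between these libraries.

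Wnt proteins are secreted, lipid-modified signals that act over short distances. A Wnt binds a Frizzled receptor together with a coreceptor. With LRP5 or LRP6 as coreceptor, β-catenin escapes destruction and switches on genes through TCF/LEF factors, and with ROR2 or RYK the signal instead alters cell shape, polarity and calcium. In the kidney, Wnt4 is needed for mesenchyme to turn into nephron epithelium, Wnt11 acts in the branching ureteric bud and Wnt7b in formation of the medulla, and Wnt signals return in fibrosis.

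The main observation was an exchange of the most abundant ligand, from Wnt16 in Control cells to Wnt9a in TGF-β1-treated cells. The stretches of 250 bases just before their transcription starts are shown because these 2 genes carry that exchange, and the stretch of Wnt1 is shown because its 3 Control values were all 0. The sequences are from RefSeq on GRCm38.p6, all on the plus strand, 5′ to 3′, and capitals mark the SMAD element CAGAC or its reverse complement GTCTG. SMAD proteins carry the TGF-β signal to DNA.
Wnt16, chr6:22287977-22288226: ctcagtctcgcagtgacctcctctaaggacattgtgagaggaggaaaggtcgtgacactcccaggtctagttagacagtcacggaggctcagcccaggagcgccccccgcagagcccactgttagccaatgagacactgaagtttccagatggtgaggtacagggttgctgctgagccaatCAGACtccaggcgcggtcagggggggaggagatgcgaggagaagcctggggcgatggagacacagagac
Wnt9a, chr11:59306680-59306929: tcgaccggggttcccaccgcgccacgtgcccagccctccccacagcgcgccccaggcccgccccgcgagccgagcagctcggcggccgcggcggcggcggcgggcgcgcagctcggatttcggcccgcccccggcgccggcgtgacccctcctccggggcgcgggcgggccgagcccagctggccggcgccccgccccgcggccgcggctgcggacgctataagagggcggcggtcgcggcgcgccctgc
Wnt1, chr15:98789607-98789856: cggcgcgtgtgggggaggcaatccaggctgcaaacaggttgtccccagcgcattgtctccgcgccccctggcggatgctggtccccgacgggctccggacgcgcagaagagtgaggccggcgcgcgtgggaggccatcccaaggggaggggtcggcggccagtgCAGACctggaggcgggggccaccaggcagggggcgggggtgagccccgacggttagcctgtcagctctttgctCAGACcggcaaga

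RefSeq promoters were found for 8 of the 10 genes, as 11 starts in all. The Wnt16 stretch held 1 SMAD element, starting 69 bases before the transcription start, the Wnt9a stretch held 0 and the Wnt1 stretch held 2. Of 32851 promoter stretches of the same length, 42.2% held at least 1 such element. The 3 stretches differed in base composition: Wnt16 had 59.2% G and C and 9 CpG dinucleotides, Wnt9a 84.4% and 48, and Wnt1 71.6% and 23, against medians of 52.4% and 6 over all promoters. The TCF/LEF site CTTTGAT (or ATCAAAG) was in none of these 3 stretches and in 3.21% of all promoters, and the AP-1 site TGANTCA was in none of them and in 6.75% of all. A match is a description of the letters only.

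Levels are given in FPKM (fragments per kilobase of transcript per mega (M) mapped fragments), which is per length, so that different ligands can be set side by side. Depth recovered from the smallest steps of the table was 10.1 to 11.1 M fragments per library. TGF-β1 replicate 2 was the shallowest, and its deviations from the group mean were lower for transcripts richer in GC (Spearman's rho across genes -0.36, against 0.248 and 0.288 in TGF-β1 replicates 1 and 3). Of the markers of mesangial cells, Pdgfrb was at 32.0 to 41.1 FPKM in Control and 28.4 to 29.9 FPKM with TGF-β1. Acta2 was at 912 to 1091 and 3587 to 4268 FPKM. Des, Itga8, Thy1 and Pdgfra, also commonly used, were each at most 0.55 FPKM in every library. Of the 17 mesangial marker rows, 9 were called in the fit of every row, 5 higher and 4 lower, against 14.6% and 16.0% of all rows. Of 13 kidney tubule marker rows, Pax8, Cdh16 and Cldn2 were at 32.0 to 146 FPKM in Control cells, whereas Cdh1 was at most 0.123 FPKM. The summed level of the tubule list was 294 to 359 FPKM in Control and 46.7 to 50.4 FPKM with TGF-β1, most of it from Pax8 and Cdh16 in Control, and it was lower with the treatment, as were Wnt16 and Wnt4. The list's 5 rows with a mean of at least 1 FPKM were all called lower (median log2 change -3.28), against 23.6% of all such rows. Of the 5, Aqp1 and Cldn2 passed only through Control. In the fit of every row the list did not move as one, with 6 of its 13 rows called lower and 3 higher. Of all rows, 16.0% were called lower and 14.6% higher in that fit. The 3 called higher were Krt19 (0.156 to 1.06 FPKM), Krt18 (0.279 to 1.57 FPKM) and Slc12a1 (0.0615 to 0.377 FPKM), chosen after their values were seen. The part of these markers in the change of the ligands was not tested. Podocyte markers summed to 62.1 to 65.5 and 53.0 to 56.9 FPKM (7 rows), endothelial markers to 3.45 to 5.03 and 2.97 to 3.76 FPKM (7 rows). Macrophage markers (7 rows) summed to 87.0 to 114 and 9.03 to 11.9 FPKM, of which Cd14 was 78.8 to 104 and 6.77 to 8.28 FPKM. Csf1r, the next most abundant of them in Control, fell from 6.27 ± 0.979 to 0.411 ± 0.156 FPKM (SD, n = 3; limma adjusted p 8.56e-05), and Ptprc was at most 0.0448 FPKM. Cd68, at 2.79 ± 0.836 and 2.22 ± 0.448 FPKM, was not called (limma adjusted p 0.393). In the fit of every row 2 of the 7 macrophage rows were called, both lower. In such bulk samples, fewer cells of a type and less RNA per cell cannot be told apart.

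Wnt16 (mm9 chromosome 6, 22238227 to 22250409), a Wnt best known for its role in cortical bone, was at 91.1, 94.5 and 72.4 FPKM in the Control libraries. It was at 0.887, 1.23 and 1.39 FPKM in the TGF-β1 libraries. Every treated library was thus far below every Control library. The group means were 86.0 ± 11.9 and 1.17 ± 0.255 FPKM (SD, n = 3), 73.7 times lower with TGF-β1. On the log2(FPKM + 1) scale, which understates changes of low genes, the change was -5.32 (SE 0.141, limma adjusted p 5.16e-06). Of 11898 tested rows, 23 had a larger fall. The row names a transcript with a retained intron, 1 of 3 annotated for the gene, and it is not stated whether the value is that of the transcript or of the gene.

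Wnt9a (chromosome 11, 59120430 to 59147054), which is known for its part in joint formation, moved the other way. It was at 2.03, 1.39 and 0.833 FPKM in Control and at 37.0, 26.6 and 32.9 FPKM with TGF-β1. The lowest treated library was more than 10 FPKM above the highest Control library. The means were 1.42 ± 0.599 and 32.2 ± 5.26 FPKM (SD, n = 3), 22.7 times higher, and the log2 change was 3.80 (SE 0.211, limma adjusted p 5.59e-05). Of the tested rows, 31 had a larger rise. The treated library with the lowest value was replicate 2, and without it the log2 change was 3.92.

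**Figure D1:**
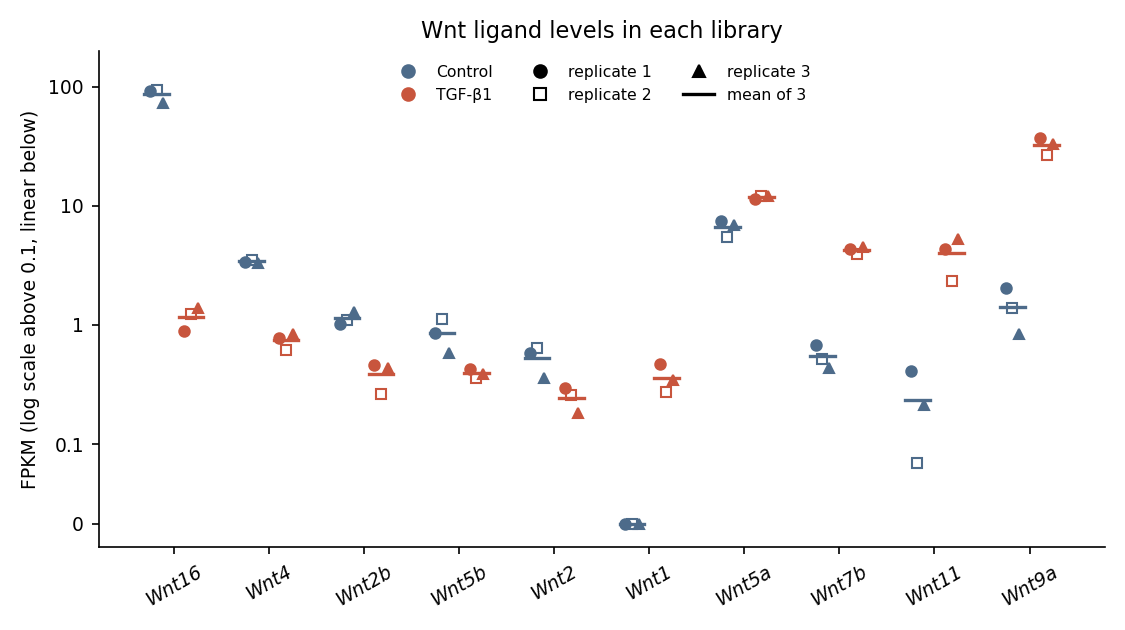
FPKM of each Wnt ligand in each library, on an axis that is logarithmic above 0.1 and linear below. Circles, squares and triangles are replicates 1, 2 and 3, blue for Control and red for TGF-β1, bars are the means of 3 libraries, and genes run from the largest fall (Wnt16) to the largest rise (Wnt9a). No gene's Control and TGF-β1 values overlap.

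Across the 10 ligands, 8 were called changed in the fit of every row of the table, 5 higher and 3 lower with TGF-β1 (limma, adjusted p under 0.05). Of all 19730 rows, 30.5% were called in that fit, 14.6% higher and 16.0% lower. All 10 ligands had groups that did not overlap, 5 higher and 5 lower with TGF-β1, against 44.1% of all rows, 20.5% higher and 23.6% lower. Only 6 of the 10 had a mean of at least 1 FPKM and entered the filtered test, where 48.1% of 11898 rows were called (24.5% higher and 23.6% lower). Of the 6, Wnt4, Wnt7b and Wnt11 passed only through the group in which they were high. Values of Wnt4, Wnt5a, Wnt7b, Wnt9a, Wnt11 and Wnt16 are from that test. In the fit of every row, the limma adjusted p of Wnt4, Wnt7b and Wnt11 was 0.000395, 0.000216 and 0.00249. Those of Wnt1, Wnt2, Wnt2b and Wnt5b are from the fit of every row.

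**Figure D2:**
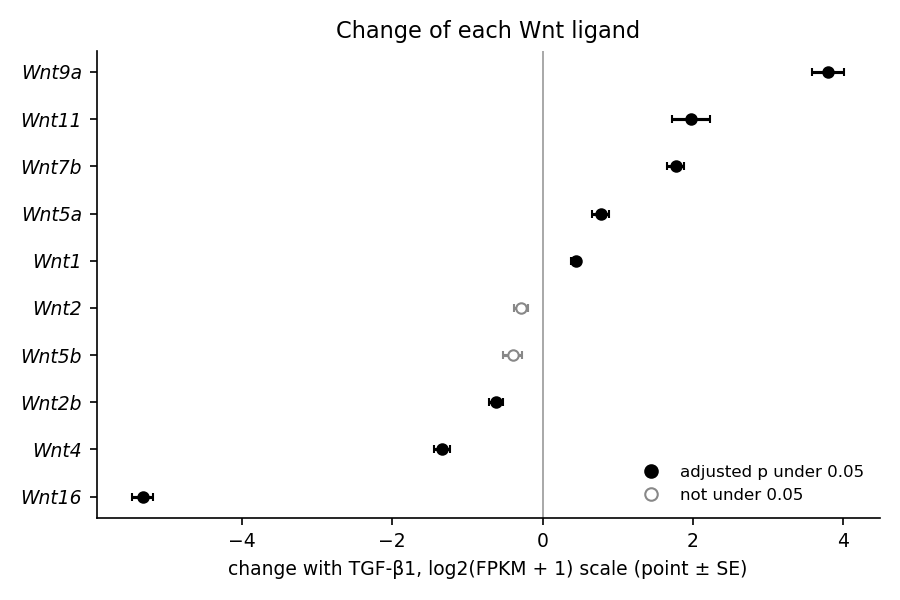
Change of each ligand with TGF-β1 (TGF-β1 minus Control) on the log2(FPKM + 1) scale, as the limma estimate ± SE over 3 libraries per group. Filled points had an adjusted p under 0.05 and open points, Wnt2 and Wnt5b, did not, with changes from -5.32 for Wnt16 to 3.80 for Wnt9a.

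Wnt5a (chromosome 14, 29317936 to 29340633), the ligand most used as an example of β-catenin-independent signalling, was the steadiest of the abundant ones. It was at 7.42, 5.49 and 6.91 FPKM in Control and at 11.5, 12.2 and 12.1 FPKM with TGF-β1. Among the 10 ligands it ranked second in both groups, and its treated libraries lay close together above all Control libraries. Wnt10a, a Wnt outside the 10, was above Wnt5a in every Control library. The rise was 1.80 times (log2 change 0.77, SE 0.116, limma adjusted p 0.00244). The lincRNA gene Gm2670 overlaps it on the other strand, and the use of strand in the estimate is not stated.

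Its close relative Wnt5b (chromosome 6, 119382549 to 119494336) did not rise with it. Wnt5b was at 0.849, 1.13 and 0.581 FPKM in Control and at 0.428, 0.361 and 0.386 FPKM with TGF-β1. The groups did not overlap, but the log2 change of -0.40 (SE 0.121) had a limma adjusted p of 0.0507, and the test did not call it. Without Control replicate 3, the lowest Control library, the adjusted p was 0.0176. With any other single library left out, the limma adjusted p was 0.0786 to 0.133, and Wnt5b was not called. The treated values rest on about 7.2 to 9.3 fragments each. Fbxl14 overlaps Wnt5b on the other strand.

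Wnt11 (chromosome 7, 105983622 to 106003705), which acts in cell movement during development, was near the limit of detection in Control. It was at 0.412, 0.0761 and 0.213 FPKM there, about 7.5, 1.4 and 3.8 fragments. With TGF-β1 it was at 4.36, 2.36 and 5.22 FPKM, all above every Control library. The means were 0.234 ± 0.169 and 3.98 ± 1.47 FPKM (SD, n = 3), and the log2 change was 1.97 (SE 0.254, limma adjusted p 0.00131). In each group replicate 2 was the lowest, and without TGF-β1 replicate 2 the change was 2.24. The row names a transcript annotated for nonsense-mediated decay, 1 of 6 of the gene, and the pseudogene Gm8398 overlaps on the other strand.

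Wnt7b (chromosome 15, 85365869 to 85412251), an activator of β-catenin in lung and kidney, was at 0.685, 0.514 and 0.439 FPKM in Control. It was at 4.35, 3.96 and 4.49 FPKM with TGF-β1. The treated libraries had an SD of 6.46% of their mean and stood 7.81 times above Control. The log2 change was 1.77 (SE 0.117, limma adjusted p 0.000103). The lincRNA gene AU022754 overlaps Wnt7b on the other strand.

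Wnt1 (chromosome 15, 98620288 to 98624268), the founding member of the family and a strong activator of β-catenin, was listed at 0 in all 3 Control libraries. With TGF-β1 it was listed at 0.467, 0.276 and 0.344 FPKM, or about 11.2, 6.1 and 8.1 fragments. It was thus detected in every treated library, at a level below that of every other ligand called higher. An exact 0 in such a table can be a failed estimate, so no fold is given. The log2 change was 0.44 (SE 0.0618, limma adjusted p 0.00337), and with 0.1 in place of 1 added to the FPKM it was 2.19.

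Wnt4 (chromosome 4, 136833404 to 136855641), the nephron-forming ligand, was at 3.40, 3.52 and 3.34 FPKM in Control. It was at 0.776, 0.618 and 0.833 FPKM with TGF-β1. Control libraries were nearly identical, with an SD of 2.55% of the mean, and each lay above every treated library. Wnt4 was 4.61 times lower with TGF-β1 (log2 change -1.34, SE 0.109, limma adjusted p 0.000208). Only 1 transcript is annotated for the gene, and no other gene overlaps it.

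Wnt2b and Wnt2 are closely related ligands that act together in lung development, and both are known as β-catenin activators. Wnt2b (chromosome 3, 104747723 to 104764627) was at 1.02, 1.10 and 1.29 FPKM in Control and at 0.459, 0.263 and 0.438 FPKM with TGF-β1. It fell to a mean 2.94 times lower (log2 change -0.62, SE 0.0972, limma adjusted p 0.00513). Wnt2 (chromosome 6, 17938940 to 17980585) was at 0.585, 0.645 and 0.361 FPKM in Control and at 0.296, 0.257 and 0.181 FPKM with TGF-β1. The Wnt2 groups did not overlap, but the log2 change of -0.29 (SE 0.0911) was not called, with a limma adjusted p of 0.0562. Without Control replicate 3, its lowest Control library, the adjusted p of Wnt2 was 0.0152. With any other single library left out, the limma adjusted p was 0.102 to 0.154, and Wnt2 was not called. By the length of the listed transcript, 1 of 2 annotated, the Wnt2 values rest on about 4.0 to 14.7 fragments per library.

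The make-up of the ligand transcripts was described by the share of each gene in the sum of the 10 FPKM values. The sum was 108, 108 and 86.4 FPKM in Control and 60.6, 48.1 and 58.3 FPKM with TGF-β1. Wnt16 alone made up 84.7%, 87.2% and 83.8% of the sum in Control and 1.47%, 2.56% and 2.38% with TGF-β1. Wnt9a made up 0.964% to 1.89% in Control and 55.3% to 61.2% with TGF-β1. Thus 1 ligand held most of the sum in each group, and it was not the same one. Wnt5a went from a share of 5.06% to 8.0% up to 19.0% to 25.3%, Wnt7b from at most 0.638% to between 7.18% and 8.23%, and Wnt11 from at most 0.384% to between 4.91% and 8.95%. Without Wnt16, the sum of the other 9 was 13.9 to 16.4 FPKM in Control and 46.9 to 59.7 FPKM with TGF-β1, so that the total fell while the total of all ligands but 1 was higher in every treated library. Without Wnt9a as well, it was 12.5 to 14.4 and 20.3 to 24.0 FPKM. The effective number of ligands, the inverse of the summed squared shares, was 1.31 to 1.41 in Control and 2.37 to 2.65 with TGF-β1. These sums are descriptions with no test, since the genes were chosen with their values known.

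**Figure D3:**
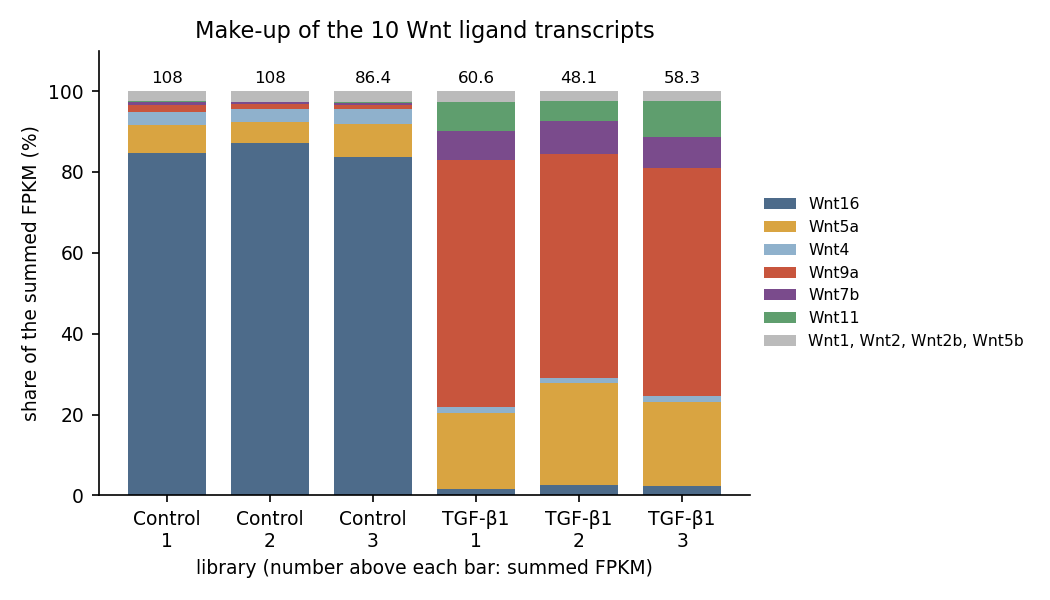
Share of each ligand in the summed FPKM of the 10 ligands, in percent, for each library, with the sum in FPKM above each bar. Wnt16 fills 83.8% to 87.2% of the Control bars, and Wnt9a fills 55.3% to 61.2% of the TGF-β1 bars.

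Among these 10 ligands alone, the order of levels in Control was Wnt16, Wnt5a, Wnt4, Wnt9a, Wnt2b, Wnt5b, Wnt7b, Wnt2, Wnt11 and Wnt1. The ranges of neighbours from Wnt9a to Wnt11 overlapped, and the first 3 stood apart from each other and from the rest. With TGF-β1 the order was Wnt9a, Wnt5a, Wnt7b, Wnt11, Wnt16, Wnt4, Wnt5b, Wnt2b, Wnt1 and Wnt2. There, Wnt7b and Wnt11 overlapped, as did the neighbours among the last 4. At a level of at least 3 FPKM, 3 ligands passed in every Control library, namely Wnt16, Wnt5a and Wnt4. With TGF-β1, 4 ligands passed in replicates 1 and 3 (Wnt9a, Wnt5a, Wnt7b and Wnt11) and 3 in replicate 2, where Wnt11 was below. Wnt5a was thus the only ligand above 3 FPKM in all 6 libraries.

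Other genes of the pathway were followed in lists arranged by role. Each count among rows that passed the filter can be read against the 48.1% of all such rows that were called. Of all such rows, 24.5% were called higher and 23.6% lower, and the median log2 change was -0.02. Each count in the fit of every row can be read against 30.5%, with 14.6% higher and 16.0% lower. Genes that passed only through the group where they were high had to differ, so the filtered counts and medians are descriptions. Of 16 receptor rows, 13 passed the filter, and 9 of these were called, 3 higher and 6 lower (median -0.12). In the fit of every row 9 of the 16 were called, 2 higher and 7 lower. The called Frizzleds went both ways. Fzd5 was 1.51 times higher (limma adjusted p 0.0376), but it was not called in 12 of 20 alternative settings, the replicate block among them (adjusted p 0.00898 to 0.18 over all 20). Fzd6 rose from 18.7 ± 1.70 to 41.9 ± 3.12 FPKM (SD, n = 3; log2 change 1.13, limma adjusted p 0.000269). Fzd7, Fzd1 and Fzd8 fell, by 1.61 to 1.65 times. The coreceptors of the β-catenin branch both fell. Lrp5 went from 2.68, 3.12 and 3.64 to 1.43, 0.834 and 1.67 FPKM (limma adjusted p 0.00906), and Lrp6 from 15.9, 15.5 and 20.2 to 10.1, 12.5 and 9.82 FPKM (0.0121). Ptk7, a polarity coreceptor, fell 1.99 times, and Mcam, an adhesion molecule that can bind Wnt5a, rose 4.83 times (log2 change 2.20, limma adjusted p 1.12e-05). The receptors of β-catenin-independent signalling Ror1, Ror2 and Ryk were looked at after their values were seen. Ror1 fell from 0.541 ± 0.20 to 0.0392 ± 0.0247 FPKM (SD, n = 3; limma adjusted p 0.00802 in the fit of every row), a call lost with replicates 1 and 3 alone (0.101). Ror2 was at most 0.0523 FPKM in any library, and Ryk was at 43.5 to 51.0 FPKM and was not called (limma adjusted p 0.676).

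Secretion of every Wnt needs the acyltransferase Porcn and the carrier Wls. Porcn was at 6.43, 6.95 and 4.89 FPKM in Control and at 6.09, 6.57 and 5.27 FPKM with TGF-β1, and was not called (log2 change -0.02, SE 0.143, limma adjusted p 0.936). Wls was at 102, 89.2 and 82.3 FPKM in Control and rose to 137, 140 and 124 FPKM (log2 change 0.55, limma adjusted p 0.00620). With replicates 1 and 3 alone the adjusted p of Wls was 0.0517. Of 19 rows for secretion and for agonists that amplify a Wnt signal, 14 passed the filter and 9 were called, 6 higher and 3 lower (median -0.03). That balance depended on the settings, with 12 of 19 called in the fit of every row, 6 higher and 6 lower, and 5 higher and 6 lower after rescaling to the sum of protein-coding rows. Below the filter, and chosen after their values were seen, the agonists Rspo3 (1.16 to 0.228 FPKM) and Rspo2 (1.08 to 0.291 FPKM) and the receptor-removing ligase Rnf43 (1.08 to 0.17 FPKM) were called lower. Of these, Rspo2 and Rnf43 lost the call with replicates 1 and 3 alone (limma adjusted p of Rspo2 0.0727). Rnf43 also lost it without Control replicate 2 and without each TGF-β1 replicate. The R-spondin receptors diverged. Lgr6 rose from 0.0578 ± 0.0717 to 5.76 ± 1.30 FPKM (SD, n = 3; log2 change 2.66, limma adjusted p 9.72e-05), while Lgr4 fell 3.06 times, from 16.2 ± 0.656 to 5.30 ± 0.348 FPKM. Tmed2, which helps Wnts leave the endoplasmic reticulum, rose 1.96 times, and Reck, which presents Wnt7 ligands to their receptors, fell 2.94 times.

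Secreted and membrane-bound inhibitors had 16 rows, of which 7 passed the filter and were called, 4 higher and 3 lower (median 0.79). The filter partly fixed that count, since Sfrp2, Sfrp4, Igfbp4 and Dkk2 passed only through the group in which they were high. In the fit of every row 8 of the 16 were called, 4 higher and 4 lower (median -0.04), against 30.5% of all rows. Summed FPKM of the list was 98.7 to 103 in Control and 173 to 189 with TGF-β1, most of it Dkk3, a divergent member of the Dickkopf family, which rose from 81.4 ± 4.13 to 167 ± 7.72 FPKM (SD, n = 3; limma adjusted p 0.000172) and was chosen after its values were seen. Sfrp2, which traps Wnts outside the cell, was at 4.86, 3.26 and 7.54 FPKM in Control and listed at 0 in every TGF-β1 library (limma adjusted p 0.000431). Sfrp4, of the same kind, fell 30.2 times, from 4.61 ± 1.26 to 0.153 ± 0.105 FPKM, and Igfbp4 fell 7.20 times. Dkk2, which blocks LRP5 and LRP6, rose from 0.304 ± 0.186 to 2.0 ± 0.348 FPKM (SD, n = 3; log2 change 1.21, limma adjusted p 0.00160). The other two called higher, likewise chosen after their values were seen, were Kremen1 (3.34 to 6.53 FPKM) and Apcdd1 (1.83 to 3.98 FPKM).

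Among 46 rows of intracellular components, 39 passed the filter and 17 were called, 9 higher and 8 lower (median -0.07), which is 43.6%. In the fit of every row 19 of the 46 were called, 9 higher and 10 lower. Ctnnb1, which encodes β-catenin, rose from 104, 136 and 144 FPKM to 196, 213 and 196 FPKM (log2 change 0.66, SE 0.137, limma adjusted p 0.00865). After quantile normalization its adjusted p was 0.0622. The corepressor Tle2 fell 4.75 times (log2 change -2.18, limma adjusted p 0.000285). The formins of the polarity branch diverged, with Daam1 2.68 times higher and Daam2 4.47 times lower. Nfatc1, a factor of the calcium branch, rose 2.48 times.

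Genes known as β-catenin targets had 29 rows, of which 15 passed the filter and 12 were called, 9 higher and 3 lower (median 0.99). In the fit of every row 14 of the 29 were called, 11 higher and 3 lower (median 0.30). The shares of all rows were 14.6% higher and 16.0% lower in that fit, and 24.5% and 23.6% among rows that passed the filter. Of the 3 called lower, Dact2 (3.78 to 0.918 FPKM) and Wisp2 (1.74 to 0.917 FPKM) passed the filter only through Control. Axin2, the feedback gene most often used as a readout of β-catenin activity, was at 1.06, 0.956 and 0.957 FPKM in Control and at 1.23, 0.509 and 0.901 FPKM with TGF-β1. The Axin2 groups overlapped, and in the fit of every row it was not called (log2 change -0.10, SE 0.155, limma adjusted p 0.668). Lef1, itself a TCF/LEF factor, rose from 5.79, 4.99 and 5.91 FPKM to 13.2, 16.5 and 13.1 FPKM (log2 change 1.21, limma adjusted p 0.000434). Wisp1 rose 13.7 times, from 12.6 ± 0.221 to 173 ± 11.7 FPKM (SD, n = 3; limma adjusted p 2.69e-06), Myc 4.76 times and Plaur 4.61 times, and these genes also respond to other signals. Id2, likewise a target of BMP signalling, fell 5.80 times (log2 change -2.47, limma adjusted p 8.43e-06).

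**Figure D4:**
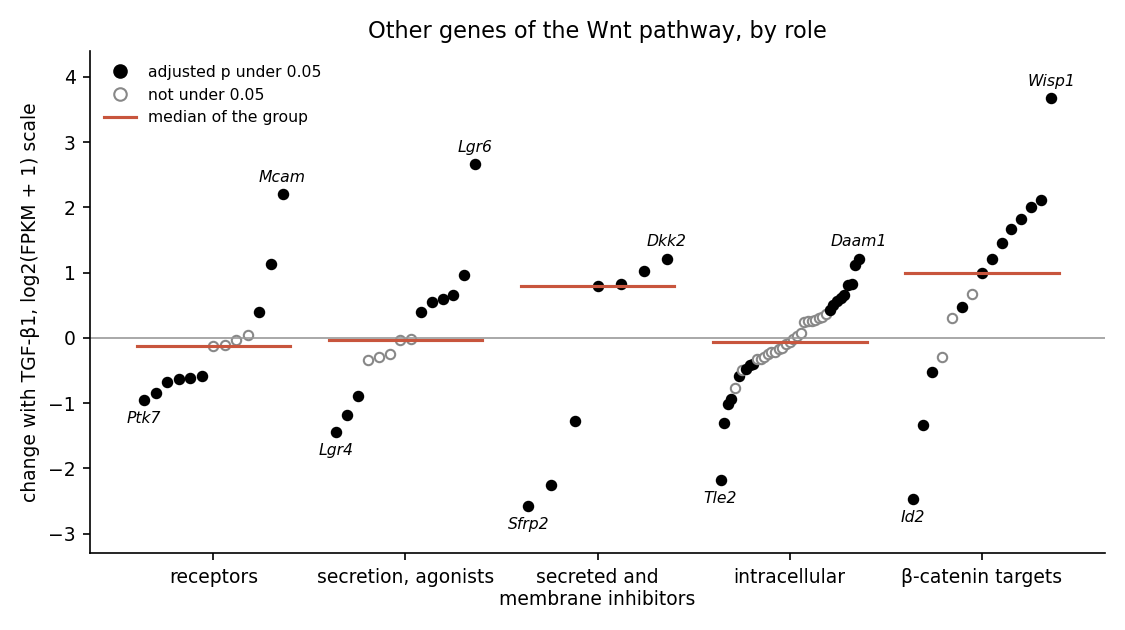
Change with TGF-β1 on the log2(FPKM + 1) scale of the other Wnt pathway genes with a mean of at least 1 FPKM, by role. Each point is 1 gene, filled where the limma adjusted p was under 0.05, red bars are medians (from -0.12 for receptors to 0.99 for β-catenin targets), and the genes with the lowest and highest change in each group are named.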

How the data were processed

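RNA was sequenced in 3 Control and 3 TGF-β1 libraries. After discarding reads of low quality, the authors aligned the others to build mm9 of the mouse genome with TopHat (TopHat2 2.0.11 in the submitters' processing notes) and took FPKM from Cufflinks. The deposited FPKM values, 1 column per library, carry no stated scaling between libraries. The authors tested counts with DESeq. Counts were not used here.

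Groups came from the labels. limma 3.58.1 in R 4.3.3 (lmFit, eBayes with a trend) was run on log2(FPKM + 1) as a two-sided test. Its p-values were adjusted by the Benjamini-Hochberg method over all rows tested: 11898 rows with a mean of at least 1 FPKM, and separately all 19730 rows, used for ligands below the filter. It was also run on simulated data with far fewer changed rows than were called here, so that run cannot vouch for the calls of these data. The ligands, gene lists and tests were chosen with earlier results of these data known. All 10 ligands are named, and in each list up to 4 called genes with the largest change, plus Porcn, Wls, Ctnnb1, Lrp5, Lrp6, Axin2 and Lef1. Other genes named were chosen after their values were seen. Gene coordinates are 1-based on mm9 (GENCODE M1, 19699 rows matched by transcript).

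Depth was read from low FPKM steps in protein-coding genes with 1 transcript, assuming fragments of 200 nt. At the best depth, at least 99.5% of the values fell within 0.1 of a whole fragment, where evenly spread values would give 20%. Fragment numbers for ligands use the listed transcript's length, cover counting error only and are approximate. For Wnt2 and Wnt11 several did not fall near whole numbers, so the length used for their FPKM may differ and the true numbers may be lower.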

Additional observations from a re-analysis of the deposited data

How the results depend on the processing

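Direction was the same in every alternative for each of the 10 ligands, and the 8 called ligands kept their call in all of theirs. Wnt2 and Wnt5b were called after rescaling to the sum of protein-coding rows (adjusted p 0.0317 and 0.0306) and without Control replicate 3, and Wnt5b also without the variance trend (0.0481). Their adjusted p ranges were 0.0152 to 0.26 and 0.0176 to 0.188. That rescaling moved the median of all rows to -0.19, with 2014 tested rows called higher and 3951 lower, against 2911 and 2810 as reported. At a mean of at least 3 FPKM, 3 ligands were tested and called, and 2 of 2 inhibitors, since fewer rows were tested. At an adjusted p under 0.01, 3672 rows and 11 intracellular genes were called, by the stricter threshold. Leaving out 1 library gave 8 to 10 called ligands in the fit of every row. In the filtered test it gave 4451 to 5422 called rows (lowest without TGF-β1 replicate 1).

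Groups share replicate numbers. Deviations of same-numbered libraries had correlations of 0.092, 0.232 and 0.085 across genes. Those of differently numbered libraries ran from -0.194 to 0.117. The same-numbered values were thus all positive, but these few correlations cannot settle whether the numbers pair the samples. The main fit has no block. With a replicate block, 8 ligands were called in the fit of every row, and 5391 rows in the filtered test. A batch term for replicate 2, or use of replicates 1 and 3 alone, also gave 8 called ligands in the fit of every row. The lowest ligands rest on few fragments, which limits their precision.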

Other observations

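Of the 6 other rows with a Wnt symbol, 2 passed 1 FPKM. Wnt10a was at 8.61, 7.38 and 7.48 FPKM in Control and at 3.70, 1.96 and 3.46 FPKM with TGF-β1, which placed it above Wnt5a in 3 of 3 Control libraries. Wnt10b, its close relative, was at 0.940, 1.23 and 1.12 FPKM in Control and at 5.45, 4.44 and 5.11 FPKM with TGF-β1. In the fit of every row both were called, with log2 changes of -1.15 (limma adjusted p 0.00778) and 1.52 (0.000465). The 2 relatives thus moved in opposite directions, with no overlap between groups in either. The 6 rows together summed to 8.73 to 9.75 FPKM in Control and to 6.40 to 9.15 FPKM with TGF-β1. Wnt3, Wnt6, Wnt7a and Wnt8b were at most 0.145 FPKM in every library and were not called.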
